A study of Mus musculus with 14 samples.

Results

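The genes described here encode the proteins of the cytosolic ribosome or are named after such genes. They were selected by symbol, with earlier results of these data known. The symbols were those of the large subunit (Rpl), the small subunit (Rps), the acidic stalk proteins Rplp0, Rplp1 and Rplp2, and Rpsa. The rule found 88 of the 55421 mouse genes of the count table. These were 46 genes of the large subunit, 31 of the small subunit, together 77 core genes, and 11 paralog-like genes whose symbol ends in l or l1 (Rpl3l, Rpl6l, Rpl7l1, Rpl10l, Rpl22l1, Rpl32l, Rpl36al, Rpl39l, Rps4l, Rps12l1 and Rps27l). Of the paralog-like genes, Rpl6l, Rpl32l and Rps12l1 are annotated as processed pseudogenes and Rps4l as a transcribed processed pseudogene, with no coding sequence. RNA was sequenced from the brainstem of 7 mice aged 2 to 3 months, all carrying TH-Cre and Slc6a2-eGFP/Rpl10a on a C57Bl/6 background. Into the locus coeruleus (LC), the main noradrenergic nucleus of the brain, 4 animals (B, C, L and M) received P364S mutant human tau and 3 animals (H, I and K) received enhanced yellow fluorescent protein (EYFP). Each animal gave a total homogenate (pre-IP) and an immunoprecipitate (IP) of ribosomes that carry the eGFP-tagged Rpl10a protein. Tau IP and tau pre-IP thus have 4 libraries each, EYFP IP and EYFP pre-IP 3 each. The tag is under the control of Slc6a2, the noradrenaline transporter gene, and Cre under that of Th, tyrosine hydroxylase, so both transgenes are present in the EYFP animals too. Which promoter drives the infused constructs is not given in the sources used here. The study asked how the RNA that LC neurons translate differs between tau and EYFP animals.

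A ribosome holds a single copy of nearly every ribosomal protein, and the small subunit decodes the messenger while the large subunit joins amino acids and releases the chain through its exit tunnel. Cells make the proteins in matched amounts, in part because most of their messengers begin with a 5′ terminal oligopyrimidine (TOP) run, a cytosine followed by pyrimidines, through which the mTOR pathway and the binding protein Larp1 set their translation together. Ribosomal protein messengers are short and abundant, and neurons keep a share of them in axons and dendrites.

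The start of the messenger carries the TOP run, so it is shown for 8 genes that recur below. Start-site windows came from the RefSeq promoter table for GRCm38.p6, which held 65 of the 88 genes, and each window spans 15 bases before and 15 bases from the annotated start, 5′ to 3′ on the gene's strand. Capitals mark a run that begins with C, continues with at least 4 pyrimidines and starts within 5 bases of the annotated start; windows in lower case alone held no such run.

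Rpl38 (chr11:114668565-114668594, plus strand): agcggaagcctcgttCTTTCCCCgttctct
Rplp2 (chr7:141447636-141447665, plus strand): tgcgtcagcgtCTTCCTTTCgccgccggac
Rps6 (chr4:86857353-86857382, minus strand): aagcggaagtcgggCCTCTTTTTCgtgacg
Rps26 (chr10:128626492-128626521, minus strand): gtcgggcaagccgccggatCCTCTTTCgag
Rplp0 (chr5:115559452-115559481, plus strand): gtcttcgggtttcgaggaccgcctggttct
Rpl4 (chr9:64173372-64173401, plus strand): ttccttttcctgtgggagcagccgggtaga
Rpsa (chr9:120127751-120127780, plus strand): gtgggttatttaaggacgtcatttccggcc
Rps12 (chr10:23787195-23787224, minus strand): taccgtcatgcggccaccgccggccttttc

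A run of this kind was present in 30 of the 65 genes (46.2%), against 21.2% of the 27025 genes of the table. It was found in 16 of 34 large subunit genes (47.1%) and 11 of 23 small subunit genes (47.8%). Over the whole 300-base promoters, 250 bases before to 50 after the start, the motif CCGGAAG, searched on both strands, was present in 26 of the 65 genes (40.0%) and in 9.93% of all genes. CTCTTTC on the sense strand, which can overlap the TOP run as in Rps26, was present in 13 of 65 (20.0%) and in 4.6% of all genes. TATAAA on the sense strand was present in 7 of 65 (10.8%) and in 9.77% of all genes. A match describes the letters in the window and not a factor's binding, and the annotated start may differ from the start used in these cells.

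Total counts ran from 41843489 to 65664551 per library, so that 3 counts, taken as the floor, corresponded to 0.0457 to 0.0717 counts per 1e6 counts of the library (CPM). This floor covers counting error only. Some libraries stood apart or went against their labels. The labels call animals B, I and L male and C, H, K and M female, and no fit held sex. The libraries of M nevertheless held 674 (pre-IP) and 1153 (IP) counts of Y-linked genes, against 0 to 4 in those of C, H and K. Animal K, labelled EYFP, had 408 and 398 counts of the human tau construct, against 2 to 18 in the other EYFP libraries and 3527 to 47177 in tau libraries. The EYFP IP of animal I had an RNA integrity number (RIN, a score of RNA quality) of 4.2, against 7.7 to 9 in the other libraries, and the tau IP of animal B came from RNA at 0.1 ng per microlitre and had counts in 20813 genes, the fewest. The IP also differed between treatments in its cell markers. The summed level of 12 noradrenergic markers, with Hand2 at 0 throughout, was 1036 to 7004 CPM in tau IP and 551 to 618 CPM in EYFP IP, against 399 to 460 CPM in pre-IP, so the labelled cell type was only slightly enriched in the EYFP immunoprecipitates. The summed level of 8 oligodendrocyte markers was 3671 to 10431 CPM in tau IP and 8938 to 13248 CPM in EYFP IP, ranges that overlapped. For 10 markers of other neurons the sums did not overlap, with 344 to 620 CPM in tau IP and 834 to 854 CPM in EYFP IP. For 6 markers of choroid plexus and ependyma they were 53.6 to 1181 CPM in tau IP and 1102 to 1840 CPM in EYFP IP, which overlapped, and in pre-IP 53.8 to 1659 CPM in tau and 815 to 1339 CPM in EYFP animals. Markers of astrocytes (8, 2330 to 4761 against 4119 to 5318 CPM), microglia (8, 159 to 284 against 262 to 314 CPM) and vessels (7, 49.96 to 91.4 against 79.8 to 112 CPM) overlapped between tau IP and EYFP IP. No marker of these non-noradrenergic lists was at 0.

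Ribosomal protein messengers were abundant in every library, and their levels spanned a wide range. Per kilobase of the deposited gene length, the median of the 77 core genes in EYFP pre-IP was 76.7 CPM per kb, with quartiles of 41.0 and 138. The highest level there belonged to Rplp1, an acidic protein of the stalk that recruits elongation factors, at 483 CPM per kb ± 81.8 (SD, n = 3). Rpl36 followed at 405 ± 75.3, Rps29, a small zinc-binding protein of the small subunit head, at 306 ± 58.2, Rpl41, the shortest ribosomal protein, at 279 ± 77, and Rps15 at 256 ± 52.4 CPM per kb (SD, n = 3 each). The values of Rps29, Rpl41 and Rps15 lay within each other's spread. At the other end Rpl24 was at 0.244 and Rps10 at 0.674 CPM per kb. Both genes share exon bases with other annotated genes, 47.0% of them in Rpl24 and 28.7% in Rps10, and how the counting treated shared bases is not given in the sources used here. Rpl10l and Rps12l1 had no count in any library, Rpl32l was at 0.265 and Rpl39l, a testis-enriched relative of Rpl39, at 0.114 CPM per kb. Near-identical copies elsewhere in the transcriptome (at least 95% identity over at least 200 bases) existed for 64 of the 77 core genes, with a median of 4, so counts of single genes carry that uncertainty. Rpl21 had the most, 61 copies.

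The share of all counts that fell in ribosomal protein genes followed the fraction and, within the IP, the treatment. In EYFP pre-IP it was 1.26%, 1.47% and 1.06% in animals H, I and K. In EYFP IP it was 1.72%, 1.76% and 1.46%, and in tau pre-IP 1.52%, 1.32%, 1.47% and 1.23% in animals B, C, L and M. In tau IP it was 2.39%, 2.13%, 1.93% and 1.99%, with every tau IP library above every other library. The group means were 2.11% ± 0.204 in tau IP and 1.64% ± 0.161 in EYFP IP, 1.38% ± 0.132 in tau pre-IP and 1.27% ± 0.208 in EYFP pre-IP (SD, n = 4, 3, 4 and 3), and the pre-IP groups overlapped. In each of the 7 animals the share was larger in IP than in pre-IP, by 1.19 times in animal I to 1.61 times in animal M and 1.62 times in animal C. The groups overlapped in the balance of the subunits by summed counts: large subunit counts were 1.49 ± 0.0499 times the small subunit counts in tau IP, 1.48 ± 0.0291 in EYFP IP, 1.48 ± 0.0330 in tau pre-IP and 1.49 ± 0.0149 in EYFP pre-IP (SD). The 14 libraries ranged from 1.43 to 1.54. Taken from medians over genes in place of sums, the log2 difference in this ratio between IP and pre-IP was 0.14, against -0.0063 from sums, so the balance depended on the measure. Leaving out mitochondrially encoded counts gave shares of 2.13% ± 0.198 in tau IP and 1.66% ± 0.167 in EYFP IP (SD, n = 4 and 3).

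**Figure D1:**
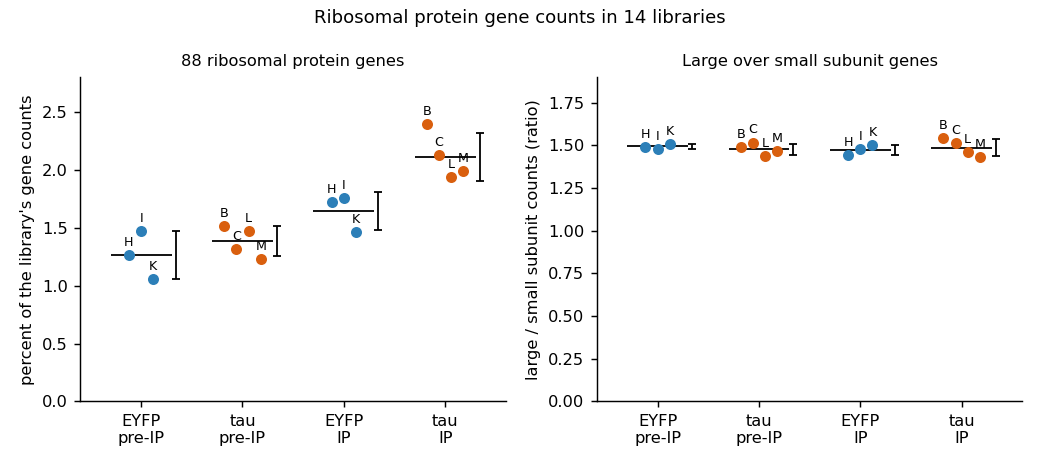
Percent of library counts in the 88 ribosomal protein genes and ratio of large to small subunit counts, 1 point per library, by group, with a line at the group mean and a bar of ± SD. The 4 tau IP points (1.93% to 2.39%) lie above all others, while the ratio stays between 1.43 and 1.54 in every group.

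The tagged protein's own gene was examined first. Rpl10a (ENSMUSG00000037805.15, GRCm38 chromosome 17, 28328471 to 28331033) encodes a large subunit protein, and its counts may include reads of the transgene. Its level was 179, 149, 123 and 128 CPM in tau IP (animals B, C, L and M) and 131, 100.1 and 91.5 CPM in EYFP IP (animals H, I and K). In pre-IP it was 104, 91.2, 98.5 and 84.4 CPM in tau animals and 86.8, 98.4 and 75.5 CPM in EYFP animals. The tau and EYFP values overlapped in both fractions. Between fractions, Rpl10a rose in the IP with a log2 difference of 0.54 ± 0.14 (SE; adjusted p 0.00632 in edgeR), near the median of all ribosomal protein genes.

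Nearly the whole set rose in the IP. The fractions were compared in a fit of 14 libraries that also held treatment. A gene was called at an adjusted p under 0.05 over all 18792 genes tested. This fit took the libraries as independent, although each animal gave both fractions. A fit with a term per animal, given below, held the pairing. All 84 ribosomal protein genes that were tested had a higher fitted level in IP, and 76 of them passed, while 16.3% of all genes tested passed in that direction. The median log2 fold change was 0.56, against 0.00 (-0.0036) over all genes. Levels did not overlap between the 7 IP and the 7 pre-IP libraries for 21 of the 84, against 3.69% of all genes.

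Both subunits took part to a like extent. In the large subunit 42 of 46 genes were called higher, with a median of 0.56 on the log2 scale, and in the small subunit 30 of 31, with a median of 0.57. The stalk genes (Rplp0, Rplp1, Rplp2 and Rpl12) were called in 4 of 4, with a median of 0.57 and values of 0.68 in Rplp1 and 0.74 in Rplp2, although the call of Rplp0 (0.31, SE 0.09, edgeR adjusted p 0.0183) was lost without animal C (0.0667) or H (0.0639). A list of 10 genes, mainly of the exit tunnel rim, had 9 calls and a median of 0.63. It held Rpl17, Rpl19, Rpl22, Rpl23a, Rpl24, Rpl26, Rpl31, Rpl35, Rpl38 and Rpl39. The barely counted Rpl24 was the gene of this list without a call. Rps12 (0.62), Rpsa (0.49) and Rps6 (0.47) were also called. Of the paralog-like genes 7 were tested, and 4 were called.

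Among the core genes the changes ran from 0.19 to 1.01. Rpl38, a small protein of the exit tunnel rim known for its part in axial patterning, had 535, 334, 294 and 275 CPM in tau IP, 196, 223 and 200.2 in EYFP IP, 175, 154, 159.7 and 133 in tau pre-IP and 123, 168 and 124 in EYFP pre-IP. Every IP library was above every pre-IP library, and the change of 1.01 (SE 0.19, edgeR adjusted p 0.001) was the largest of a core gene. Rpl23, a regulator of p53 through Mdm2 when free of the ribosome, rose by 0.90 (SE 0.16, edgeR adjusted p 0.00058). Rpl35a, a gene mutated in Diamond-Blackfan anaemia, rose by 0.89 (SE 0.15, adjusted p 0.000402) without overlap. Rpl5, which carries the 5S ribosomal RNA into the large subunit, had 184, 191, 175 and 166 CPM in tau IP and 141, 212 and 152 in EYFP IP. Its pre-IP levels were 129, 111, 88 and 91.3 CPM in tau animals and 89.6, 104 and 93.4 in EYFP animals, all below the IP levels. The change of 0.84 (SE 0.12, edgeR adjusted p 0.00012) had the smallest p of the set. Rps21 rose by 0.83 (SE 0.15, adjusted p 0.000897) and Rpl39, which lines the exit tunnel, by 0.83 (SE 0.19, adjusted p 0.00362).

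The genes with little difference between fractions were mainly long or barely counted. Rpl4, which reaches into the exit tunnel, had 379, 442, 404 and 381 CPM in tau IP, 348, 466 and 370.3 in EYFP IP, 381, 379, 338 and 310.1 in tau pre-IP and 385, 372 and 279 in EYFP pre-IP. These ranges overlapped, and the difference of 0.24 (SE 0.10) did not pass (edgeR adjusted p 0.062). A fit with a term per animal gave the same 0.24 and passed (adjusted p 0.0476 with the block), and so did the fit without animal H (0.29, adjusted p 0.0387). The fit with a term per animal called 78 genes, against 16.0% of all genes. Rpl3, at the peptidyl transferase centre, was at 0.25 (SE 0.10, adjusted p 0.0789 in edgeR), at 0.28 without animal K (adjusted p 0.04) and at 0.41 with offsets for GC content and transcript length (adjusted p 0.0344). Rpl13a, at 0.40 (SE 0.15, adjusted p 0.0597) and with a term per animal at 0.37 (adjusted p 0.0286 with the block), shares 35.4% of its exon bases with other genes. Rpl7l1, a factor of large subunit assembly rather than a subunit of the mature ribosome, was at 0.10 (SE 0.09, adjusted p 0.437). Rpl6l, Rpl24, Rpl3l and Rps10 were the other 4 not called.

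The paralog-like genes did not all follow. Rpl36al, the paralog of Rpl36a, rose by 1.31 (SE 0.27, edgeR adjusted p 0.00192), from 1.5 to 2.18 CPM in pre-IP to 2.91 to 10.2 CPM in IP. Rpl22l1, the paralog of Rpl22, rose by 1.01 (SE 0.22, adjusted p 0.00301) and the pseudogene Rps4l by 0.70 (SE 0.19, adjusted p 0.00894). Rps27l, a p53-responsive paralog of Rps27, had a change of 0.67 (SE 0.21, adjusted p 0.021). That call was lost without animal C (adjusted p 0.0653) or L (0.052), and with offsets for GC content and transcript length the value was -0.02 (adjusted p 0.96). Rpl30 lost its call of 0.54 (SE 0.11, adjusted p 0.00218) under the same offsets, with 0.06 (adjusted p 0.771). Its longest annotated transcript, which set its offset, has 2412 bases for a coding sequence of 345.

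The rise was called mainly in tau animals when the treatments were fitted apart. In the tau animals alone 73 of 84 genes were called higher, against 10.4% of all genes, with a median of 0.70 on the log2 scale. In the EYFP animals alone 1 of 84, Rpl5 (0.81, SE 0.18, edgeR adjusted p 0.0263), was called, against 3.96% of all genes, with a median of 0.39 and all 84 values above 0. With the animal as a block the EYFP animals alone gave 26 called genes, against 8.89% of all genes, and the tau animals alone 74, against 10.7%. Whether treatments differed is the interaction test, given further on. Leaving out any animal left 69 to 77 genes called in the fit of all animals: 76 without B, 76 without I, 77 without K and 73 without M, while 11.7% to 16.2% of all genes were called higher.

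**Figure D2:**
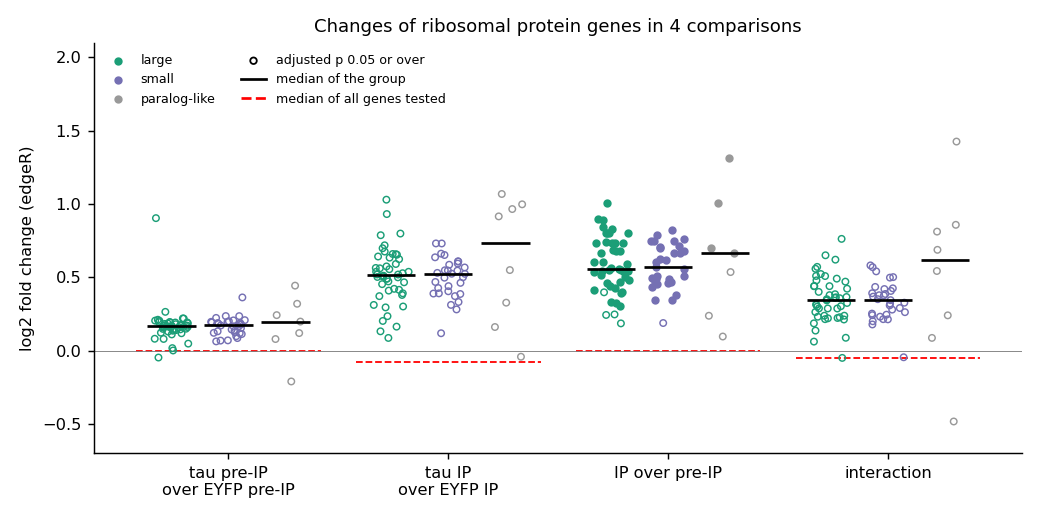
Log2 fold change of each ribosomal protein gene in the 4 comparisons, by subunit class with a black line at its median; filled points passed the edgeR adjusted p of 0.05, and the red dashed line is the median over all genes tested. The 2 subunits lie at the same height in each comparison, and filled points occur only in IP against pre-IP.

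Each animal's IP was also set against its own pre-IP. The median difference over the 77 core genes, in log2 CPM, was 0.65, 0.71, 0.38 and 0.69 in animals B, C, L and M, and 0.44, 0.23 and 0.49 in animals H, I and K. The 4 tau animals had a mean of 0.607 ± 0.156 and the 3 EYFP animals one of 0.389 ± 0.140 (SD), and the groups overlapped because animal L lay below H and K. Within every animal 74 to 77 of the 77 genes were higher in IP. The small and large subunits gave close medians in each animal, such as 0.69 and 0.63 in B, 0.73 and 0.67 in M, and 0.27 and 0.22 in I. The mean log2 enrichment of the noradrenergic markers in the same animals was 3.97, 3.19, 3.17 and 1.57 in B, C, L and M and 0.63, 0.80 and 0.63 in H, I and K. Animal M thus had the weakest marker enrichment of the tau animals and a ribosomal protein difference like those of B and C, while L had strong marker enrichment and the smallest ribosomal protein difference of the tau animals. The IP of animal I, with the lowest RIN, gave the smallest difference of all. These are single animals, and the part of marker enrichment or RIN in the differences was not tested.

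**Figure D3:**
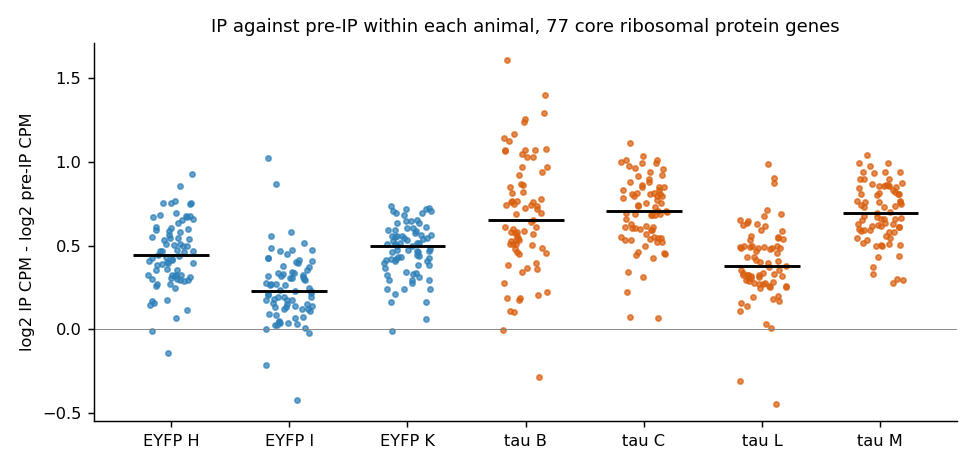
Difference between IP and pre-IP in log2 CPM for the 77 core genes in each animal, 1 point per gene and a line at the median. Medians run from 0.23 in animal I to 0.71 in animal C, and tau animal L lies below EYFP animals H and K.

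Tau IP was compared with EYFP IP next, the comparison named in the series' design. In bulk libraries, fewer cells of a type and less RNA per cell cannot be told apart. With edgeR, 0 of 85 tested ribosomal protein genes passed the adjusted p of 0.05 (smallest adjusted p 0.318), as did 0.0% of all 19472 genes. The fitted levels were nevertheless nearly all on the same side, with 84 of 85 genes higher in tau IP, a median log2 fold change of 0.52 and a median over all genes of -0.08. At an unadjusted p under 0.05, 63 of the 85 were higher and 0 lower, against 7.93% of all genes higher. In 57 of the 85 the 4 tau IP levels were all above the 3 EYFP IP levels, against 6.36% of all genes. The tau IP libraries also differed from the EYFP IP libraries in the noradrenergic and other neuronal marker levels given above and in RNA concentration, 0.4 ± 0.316 against 1.7 ± 1.05 ng per microlitre (SD, n = 4 and 3). Their part in this difference was not tested.

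The subunits matched in this comparison too. The 46 large subunit genes had a median of 0.52 and a range of 0.09 to 1.03, with 36 at an unadjusted edgeR p under 0.05. The 31 small subunit genes had a median of 0.52 and a range of 0.12 to 0.73, with 25 under that p. The 4 stalk genes had a median of 0.57, the 10 genes of the exit tunnel list 0.55 and the 8 tested paralog-like genes 0.73.

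The genes with the smallest p came from both subunits. Rpl30, a large subunit protein that binds kink-turn RNA, had 113, 120.0, 109 and 113 CPM in tau IP and 78.9, 85.1 and 73.3 CPM in EYFP IP. The 4 tau libraries lay within a narrow band above all EYFP libraries, and the difference was 0.63 in log2 (SE 0.14, p 0.00106 in edgeR, adjusted p 0.318). Rps12, at the beak of the small subunit, had 124, 145, 135 and 138 CPM in tau IP and 105, 105 and 80.2 CPM in EYFP IP. Its change of 0.59 (SE 0.14, edgeR adjusted p 0.318) was again without overlap.

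Rps29 had 486, 430.0, 374 and 372 CPM in tau IP and 288, 296 and 271 CPM in EYFP IP, a change of 0.66 (SE 0.17, edgeR adjusted p 0.318). Rps26, which contacts the messenger near the exit channel, had 199, 148, 143 and 149 CPM in tau IP and 99.5, 116 and 99.0 CPM in EYFP IP. Its change was 0.73 (SE 0.19, edgeR adjusted p 0.318). A near-identical copy of Rps26, not annotated as a pseudogene, had a mean of 75.2 CPM over the 14 libraries, beside 112 CPM in Rps26. The level of Rps26 is thus less certain than that of genes without such a copy. Rps27a, made as a fusion with ubiquitin, had 335, 303, 285 and 302 CPM in tau IP and 208, 253 and 210.4 CPM in EYFP IP, a change of 0.57 (SE 0.16, adjusted p 0.318). In each of these 3 small subunit genes the lowest tau IP level was above the highest EYFP IP level.

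Within the stalk the genes parted. Rplp1 had 552, 489.8, 408 and 393 CPM in tau IP and 347, 319 and 287 CPM in EYFP IP, a change of 0.66 (SE 0.19, edgeR adjusted p 0.318). Rplp2, its partner in the stalk dimers, had 373, 294, 262 and 248 CPM and 223, 200.1 and 187 CPM, also a change of 0.66 (SE 0.20, adjusted p 0.318). Rplp0, the longer protein that anchors both dimers to the ribosome, had 348, 364, 306 and 339 CPM in tau IP and 398, 337 and 302 CPM in EYFP IP. Those ranges overlapped, and the change of 0.09 (SE 0.15, adjusted p 0.842) was the lowest of a core gene; it turned to -0.03 with library totals in place of scaling factors and to -0.0066 without animal K.

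Rpsa of the small subunit and Rpl4 of the large subunit lay low as well. Rpsa, the laminin receptor protein that also sits on the small subunit, had 299.6, 498, 451 and 522 CPM in tau IP and 530.3, 462 and 319 CPM in EYFP IP, with the lowest value in animal B. Its change was 0.12 (SE 0.20, edgeR adjusted p 0.841), and without animal K it was -0.07. Rpl4 had a change of 0.13 (SE 0.15, adjusted p 0.749) from the levels given above, with 0.02 without animal H and 0.25 without animal I. At the other end of the genes with a mean of at least 10 CPM were Rpl22l1 (1.00, SE 0.34), Rps27l (0.97, SE 0.31) and Rpl38 (0.93, SE 0.27), with edgeR adjusted p-values of 0.32, 0.319 and 0.318. Rpl22l1 had 128, 64.3, 59.8 and 53.0 CPM in tau IP and 39.2, 42.6 and 44.4 CPM in EYFP IP, so that animal B was far above the other tau animals. Without animal B the changes were 0.55 in Rpl22l1, 0.58 in Rps27l and 0.61 in Rpl38. Rps6, the small subunit protein phosphorylated downstream of mTOR, had 381, 333, 323 and 356 CPM in tau IP and 259, 367 and 273 CPM in EYFP IP, overlapping levels with a change of 0.33 (SE 0.17, adjusted p 0.482). Rpl10a had 0.56, and the less abundant paralog-like genes 0.16 in Rpl7l1, 0.92 in Rpl36al, 1.07 in Rpl39l, 0.55 in Rps4l and -0.04 in Rpl3l.

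**Figure D4:**
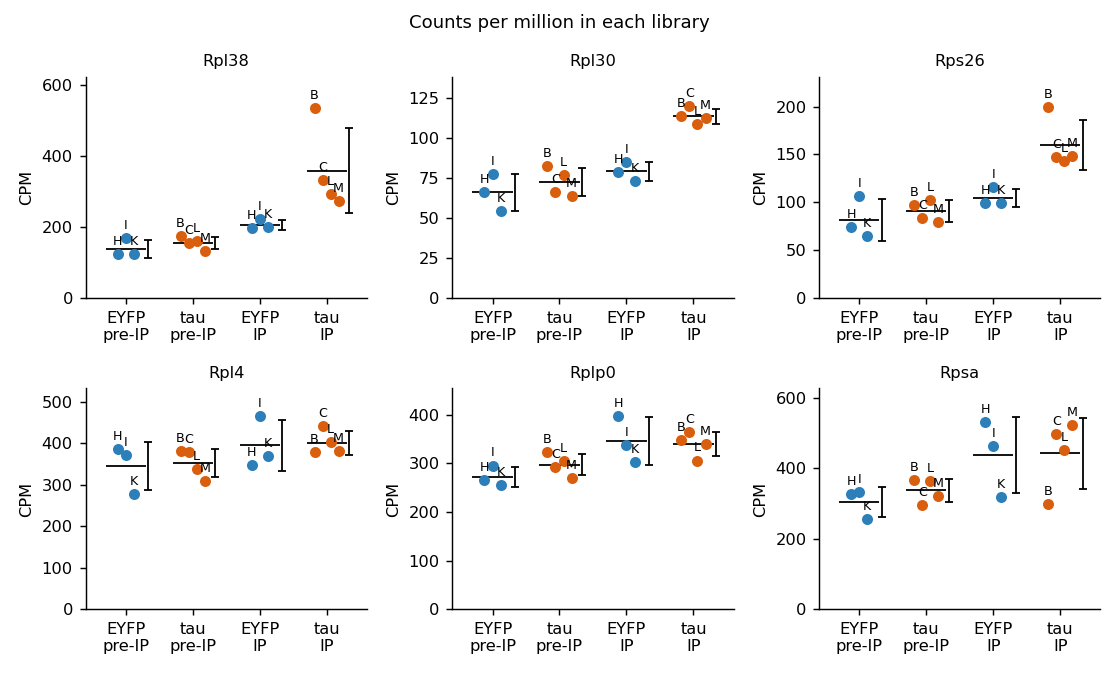
CPM in each library (letters name the animals), by group, with a line at the mean and a bar of ± SD, for Rpl38, Rpl30, Rps26, Rpl4, Rplp0 and Rpsa. In Rpl38, Rpl30 and Rps26 the tau IP libraries lie above the EYFP IP libraries, and in Rpl4, Rplp0 and Rpsa they overlap.

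The calls depended on the test. The Wald test of DESeq2 called 8 of the 85 genes higher in tau IP, against 1.6% of all genes: Rps12, Rps21, Rps26, Rps27a, Rps29, Rpl23, Rpl30 and Rpl38, with adjusted p-values from 0.00299 (Rpl30) to 0.0478 (Rps27a and Rpl23). A single edgeR fit of all 14 libraries called Rpl30 (0.65, SE 0.14, adjusted p 0.0441), 1 of 85, against 0.859% of all genes called higher, and limma with voom and quality weights called 0. The edgeR fit called 0 of the 85 whichever animal was left out. Of all genes it called 0.66% higher without M and 0.0% without each other animal. At an unadjusted edgeR p under 0.05 were 57 of the 85 without B, 51 without I, 31 without K and 64 without M. The shares of all genes higher at that p were 6.01%, 5.09%, 5.32% and 9.73%. In the same order the median of the 85 was 0.38, 0.55, 0.45 and 0.56.

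The size of a gene's difference went with the length of its coding sequence. Over the 75 core genes with a mean of at least 10 CPM, the Spearman correlation across genes between the tau IP against EYFP IP change and coding length was -0.74. In IP against pre-IP it was -0.61. Genes are not independent replicates, and the points share their libraries and normalization, so this is a description. The 38 genes with a coding length at or under the median of 456 bases had a median change of 0.60 in tau IP against EYFP IP, and the 37 longer genes 0.43. For IP against pre-IP the values were 0.69 and 0.48. Correlation with the GC content of the longest transcript was 0.0043 in the tau IP comparison, and with the mean level -0.24. The low values of Rplp0 (951 coding bases), Rpsa (885) and Rpl4 (1257) and the high value of Rpl38 (210) thus lie at the ends of the length range. The same order was present outside the ribosome. In other coding genes the median change in tau IP against EYFP IP was 0.37 up to 500 coding bases, 0.10 from there to 1000, -0.12 from there to 2000 and -0.28 over 2000. In IP against pre-IP these medians were 0.26, 0.06, -0.08 and -0.17. With offsets for GC content and transcript length fitted in each library, the ribosomal protein median in tau IP against EYFP IP was 0.44 beside 0.07 over all genes, a distance of 0.37 against 0.60 without offsets, and 23 of 85 genes were at an unadjusted edgeR p under 0.05 in place of 63, against 7.48% of all genes higher. In IP against pre-IP the offsets gave 67 of 84 genes called, against 13.8% of all genes called higher.

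**Figure D5:**
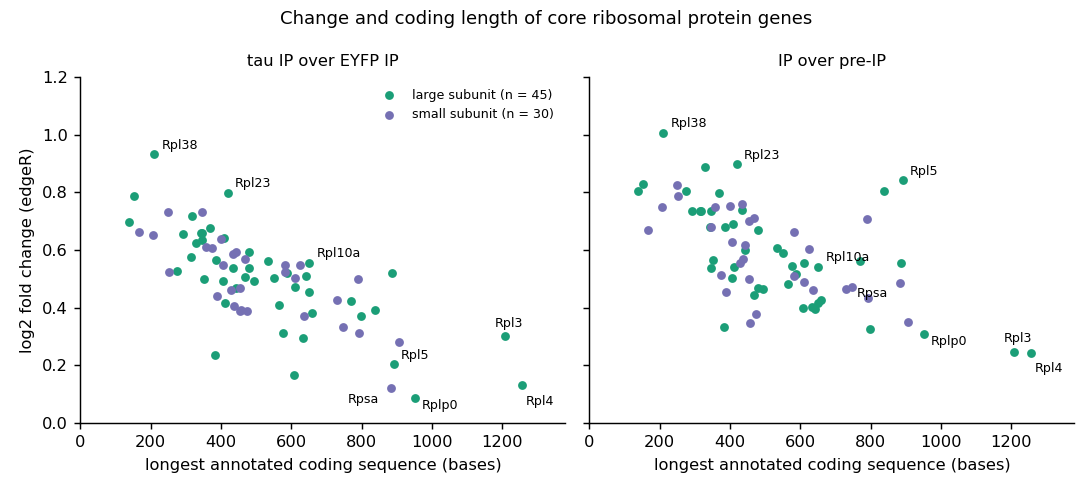
Log2 fold change against coding length in bases for the 45 large and 30 small subunit genes with a mean of at least 10 CPM. Values decline with length in tau IP against EYFP IP (Spearman correlation -0.74) and in IP against pre-IP (-0.61), with both subunits along the same line.

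Genes with and without a TOP-like run at the annotated start had close medians. The search found a run in 46.2% of the ribosomal protein genes, although most of these messengers begin with one. The group without a run may therefore hold missed runs, so these medians cannot say whether the run matters. The 27 core genes with the run had a median change of 0.50 in tau IP against EYFP IP, and the 30 with a window but no run 0.52. In IP against pre-IP the medians were 0.55 and 0.56. Rpl38 and Rps26, with a run, and Rps12, without, were all among the genes with no overlap between tau and EYFP IP.

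In the homogenate the treatments lay close together. With edgeR, 0 of 84 ribosomal protein genes passed in tau pre-IP against EYFP pre-IP, as did 0.0% of all 19197 genes, and 0 of the 84 had an unadjusted p under 0.05; DESeq2 and limma also called 0. The median was 0.17 on the log2 scale against 0.00 (-0.00048) over all genes, and 82 of 84 values were above 0. The large subunit had a median of 0.17 and the small subunit of 0.17. Rpl6 was the one gene of 84 without overlap, against 1.33% of all genes, with 151, 149, 147 and 147 CPM in tau and 109, 138 and 126 CPM in EYFP pre-IP (0.27, SE 0.13, edgeR adjusted p 1.0). Rps29 had a change of 0.24 (SE 0.15) and Rpl3 of 0.02 (SE 0.14). Rpl8, Rpl7a and Rps28 were at 0.21, 0.19 and 0.24, and the barely counted Rpl24 at 0.90. Rplp0 and Rpl10a were both at 0.14, Rplp1 and Rplp2 at 0.16, Rpsa at 0.17, Rpl30 at 0.15, Rps6 at 0.12 and Rps12 at 0.10. Rpl22 (0.00) and Rpl13a (-0.05) lay lowest among the more abundant genes. Of the paralog-like genes, Rpl22l1 was at 0.20, Rpl36al at 0.24, Rps27l at 0.12, Rpl7l1 at 0.08, Rpl3l at 0.44, Rps4l at 0.32 and Rpl6l at -0.21. Fau was at 0.17 and Rack1 at 0.18. Each of these had an edgeR adjusted p of 1.0. The median was 0.30 without animal I, with 25 genes at an unadjusted edgeR p under 0.05 (1.3% of all genes), and 0.09 without animal K, with 1 (2.04%).

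The interaction term of the model asks whether the tau difference was larger in IP than in pre-IP. With edgeR, 0 of 85 ribosomal protein genes passed (smallest adjusted p 0.807), as did 0.0% of all 20495 genes, and DESeq2 and limma called 0 of the 85. The median of the interaction, the tau difference in IP minus that in pre-IP, was 0.35 on the log2 scale against -0.05 over all genes, and 82 of 85 values were above 0. At an unadjusted p under 0.05, 7 of 85 were higher, against 4.03% of all genes. The 5 with the smallest p were Rps24 (0.58, SE 0.23), Rpl30 (0.49, SE 0.20), Rps27l (0.86, SE 0.36), Rps12 (0.50, SE 0.21) and Rpl38 (0.76, SE 0.33). Without animal B the values of Rps27l and Rpl38 were 0.46 and 0.45. Rplp1 and Rplp2 were both at 0.51, Rpl10a at 0.42, Rps6 at 0.21 and Rpl22l1 at 0.81. Among other paralog-like genes Rps4l was at 0.24 and Rpl7l1 at 0.09. The less abundant Rpl36al, Rpl39l and Rpl3l were at 0.69, 1.43 and -0.48. Rplp0, at -0.05 (SE 0.19), Rpsa, at -0.04 (SE 0.25), and Rpl5, at 0.06 (SE 0.24), had the lowest values among genes of at least 10 CPM, and the sign of each changed with the scaling, the length offsets or an animal left out. The large and small subunits had medians of 0.35 and 0.34. With the animal as a block 15 genes were at an unadjusted p under 0.05 (4.3% of all genes) and 0 were called; the median was 0.22 without B, 0.22 without I, 0.33 without K and 0.33 without M.

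Related gene lists were set beside the ribosomal proteins, chosen by name; of all genes tested in IP against pre-IP, 16.3% were called higher and 14.7% lower. Fau, which encodes a ribosomal protein fused to a ubiquitin-like protein, rose in IP against pre-IP by 0.68 (SE 0.13, edgeR adjusted p 0.00134). Rack1, a scaffold on the small subunit head, rose by 0.52 (SE 0.08, adjusted p 0.000317) without overlap. In tau IP against EYFP IP the value was 0.57 in Fau (0.41 in the interaction) and 0.11 in Rack1 (-0.0019 with library totals and -0.0089 without animal K). Other TOP messengers, which include elongation factors, were called higher in IP against pre-IP in 11 of 20, with a median of 0.38, and had a median of 0.12 in tau IP against EYFP IP. Ribosome biogenesis genes were called higher in 10 and lower in 5 of 37 in IP against pre-IP, with a median of 0.09, and had a median of -0.06 in tau IP against EYFP IP. Of 16 regulators of ribosomal protein translation, 5 were called higher and 4 lower in IP against pre-IP. Larp1, which binds the TOP run, rose by 0.86, while Mtor fell by 0.94 and Tsc2 fell by 1.27. The mitochondrial ribosomal proteins, which belong to a separate ribosome, were called higher in 50 and lower in 1 of 77 in IP against pre-IP, with a median of 0.38. In tau IP against EYFP IP they had a median of 0.41, with 42 of 77 at an unadjusted edgeR p under 0.05 and 39 of 77 without overlap, so a difference in that direction was not limited to the cytosolic set. Ribosomal protein pseudogenes, whose counts may come from the parent genes, had a median of 0.49 over the 73 that were tested.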

How the data were processed

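RNA from 7 mice was measured in 14 libraries, made from polyadenylated RNA with SMART-Seq v4 and Nextera XT kits per the labels. Raw counts of reads per gene, as whole numbers, were deposited for each library; the submitters' processing notes name FastQC, Trim Galore, STAR and featureCounts and the builds GRCm38 and mm10. Whether counting used strand, and what became of multi-mapped or shared reads, is not given in the sources used here. Per the file headers, the deposited sample sheet gives the RIN, a quality score, RNA concentration and the GC percent of each library; how the GC percent was made is not stated.

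Symbols came from the deposited gene table, and transcripts and coding lengths from GENCODE M21 (GRCm38). The members and lists were chosen with earlier results of these data known. Rpl30 and Rps12, named in every comparison, had been named in those earlier results. Genes were tested in R 4.3.3 with edgeR 4.0.16 (quasi-likelihood F test, filterByExpr, TMM scaling, Benjamini-Hochberg over all genes tested, threshold 0.05), with SE taken as the log2 fold change over the square root of F. The fitting script was checked on simulated counts. The labels give animal letters and no batch. In the tau against EYFP fits within a fraction each library is from its own animal, so p-values measure the spread between these animals. Fits that held both fractions without the animal block took an animal's paired libraries as independent. Their p-values therefore do not measure the spread between animals, and only the block fits held the pairing. CPM used library totals, and log2 CPM a prior of 0.5. Both fractions come from the same animal; the correlation of same-letter deviations was 0.195 to 0.489.

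Named in each comparison were called genes with the largest changes (at most 8, or the 5 with the smallest p), the 3 farthest above and below the set's median among those of at least 10 CPM, and Rpl10a, stalk genes, Rpsa, Rps6, Rpl30, Rps12, paralogs, Fau and Rack1 (1 further gene of the rule is not reported here); Larp1, Mtor, Tsc2 and other genes named where the rule does not name them were chosen after their values were seen. Alternatives were DESeq2 1.42.0, limma 3.58.1 voom, other scalings and filters, GC and length offsets (mgcv 1.9.3), library-number range, each animal left out, and the animal block; the block fits within 1 treatment were added after seeing the data. Copies were found with blastn 2.17.0.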

Additional observations from a re-analysis of the deposited data

Results flagged for a closer look

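In tau IP, 5 ribosomal protein genes had a level in animal B that stood apart from the other 3 tau animals by Dixon's criterion: Rpl22l1 at 128 CPM, Rpl35a at 308 CPM, Rpl39 at 199.996 CPM, Rps26 at 199 CPM and Rps28 at 225 CPM, each the highest of the 4. Of the 74 sets of 4 libraries examined 5 stood out. Chance gives about 1 in 20 for independent sets, but these sets share libraries, so that rate cannot be used as a yardstick here. The library of animal B also had the lowest RNA concentration, 0.1 ng per microlitre, the fewest genes with counts, 20813, and the highest noradrenergic enrichment, 3.97 on the log2 scale. The part of these in the 5 levels was not tested.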

How the results depend on the processing

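In tau IP against EYFP IP the number of ribosomal protein genes called was 0 in edgeR, 8 with the Wald test of DESeq2 and 1 in a single fit of all 14 libraries (1.6% and 0.859% of all genes called higher). Library totals without scaling moved the median of all genes there from -0.08 to -0.18 and that of the ribosomal protein genes to 0.40, a distance of 0.58 against 0.60. In IP against pre-IP 76 of 84 genes were called, 1 in EYFP animals only and 26 in EYFP animals with the animal as a replicate block. The shares of all genes called higher were 16.3%, 3.96% and 8.89% in the same order. The block over all animals called 78, against 16.0% of all genes called higher. It added Rpl4 (edgeR adjusted p 0.0476) and Rpl13a (adjusted p 0.0286) and changed no other call among the genes named. The log2 ratio of large to small subunit counts, taken from medians over genes in place of summed counts, was 0.074 in tau IP against EYFP IP (from 0.0075), 0.022 in pre-IP (from -0.018) and 0.14 in IP against pre-IP (from -0.0063). Leaving out each animal gave 0 ribosomal protein genes called for tau in IP, in pre-IP and in the interaction, beside at most 0.66% of all genes called higher. For IP against pre-IP it gave 69 to 77, beside 11.7% to 16.2% of all genes called higher. In the same order the medians were 0.38 to 0.57, 0.09 to 0.30, 0.22 to 0.45 and 0.51 to 0.64. The share of counts kept its direction (log2 ratios of 0.28 to 0.41 in tau IP, 0.015 to 0.25 in tau pre-IP and 0.48 to 0.56 in IP), and the subunit ratio moved between -0.0072 and 0.025, -0.031 and -0.0053, and -0.014 and 0.00094.

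Small single-gene values changed sign; the cause was not tested. For tau IP these were Rack1 (-0.0019) and Rplp0 (-0.027) with library totals, Rpl3l with library-number range (0.081), and with an animal left out Rpl3l (-0.42 to 0.44), Rack1 (-0.0089 to 0.17), Rplp0 (-0.0066 to 0.17) and Rpsa (-0.0705 to 0.25). For tau pre-IP they were Rpl22 with library totals (-0.0201), voom (-0.046), no filter (-0.0013), offsets (-0.025) and library-number range (-0.0061), Rpl3 with library totals (-0.0056), voom (-0.0504) and offsets (-0.0303), and Rpl13a with library-number range (0.0012). Leaving out animals gave Rpl22 -0.058 to 0.052, Rpl3 -0.11 to 0.13, Rpl13a -0.21 to 0.046, Rpl7l1 -0.022 to 0.15 and Rps12 -0.034 to 0.21. For IP against pre-IP they were Rpl3l with voom (-0.083) and in tau animals with the block (-0.19), and Rps27l with offsets (-0.016; with the block -0.062). In the interaction they were Rpl5 (-0.044) and Rpl7l1 (-0.013) with library totals, Rps4l (-0.22) and Rpsa (0.15) with voom, and Rack1 (0.085), Rplp0 (0.026) and Rpsa (0.0398) with offsets (with the block 0.0846, 0.0101 and 0.069). Leaving out animals there gave Rpl5 -0.046 to 0.15, Rpl7l1 -0.027 to 0.12, Rps4l -0.045 to 0.36, Rpsa -0.20 to 0.0898, Rack1 -0.21 to 0.062 and Rplp0 -0.18 to 0.10. Depth was ample for 75 of the 77 core genes, which had a mean of at least 10 CPM. The core genes Rpl24 and Rps10 and the paralog-like Rpl3l, Rpl6l, Rpl32l and Rpl39l were near the low end of what the libraries resolve.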
